A study of Mus musculus with 96 samples.

Results

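Expression of 10 lysosomal genes was followed in single cells of C10, a mouse lung cell line: Cd68, Lamp1, Lamp2, Cd63, Scarb2, Npc1, Npc2, Mcoln1, Ctns and Laptm4a. They are 10 of the 40202 genes in the count files and were picked by name, with Cd68 as the gene of interest and the rest as proteins of the lysosomal membrane or its cholesterol export route. Npc2 among them is a soluble protein of the lumen. They were chosen with the difference between the groups known, so every value of that difference is a description and carries no test. The study made 96 libraries of 1 cell each with SMART-seq v4, a full-length cDNA method without molecular identifiers. Of these, 48 came from C10 cells with no treatment (control) and 48 from C10 cells exposed to RO-3306, known as a small-molecule inhibitor of the mitotic kinase CDK1, at a labelled dose of 10 nM for 36 h. Each library title has 1 of the letters A to D, in both groups, and the lettered groups are called sets here. The labels do not say what the letters mean. The labels name no separate culture, so each treatment is 1 sample. All intervals are 95% intervals for counting error only, of reads in a level or of cells in a share, and leave out any difference between cultures.

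The labels call C10 an alveolar type II epithelial line. Of the defining alveolar type II markers, Sftpa1, Sftpc, Sftpd, Slc34a2 and Napsa had no count in any kept cell of either group, and 2 of the 10 listed markers (Abca3 and Lpcat1) reached 5 CPM, counts scaled to a total of 1000000 per group or cell. The 6 general epithelial markers summed to 1.78 CPM in control cells and 0.978 CPM in RO-3306. The 6 mesenchymal markers, Vim and Col1a1 among them, summed to 5579 CPM in control cells and 2523 CPM in RO-3306. The measured markers therefore go against the label, and the cells are called C10 cells below.

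Lysosomes are acidic organelles in which proteins, lipids and sugars are broken down, and their limiting membrane is lined by heavily glycosylated proteins that shield it from the enzymes inside. Lamp1 and Lamp2 are the most abundant of these, and Cd68 is a member of the same family that is used as a marker of macrophages. The membrane also holds channels and transporters, which let ions, amino acids and cholesterol leave the organelle. Many lysosomal genes carry an E-box element in their promoters that is bound by TFEB, TFE3 and MITF, the transcription factors of the MiT/TFE group.

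Promoter sequences are shown for the 3 genes whose windows hold repeated matches to the E-box or the AP-1 site. Each is the 250 bases before the RefSeq start on GRCm38.p6, an older build than the GRCm39 of the count files, written 5′ to 3′ on the strand of the gene. A window was found for 9 of the 10 genes. Capitals mark matches to CACGTG (the E-box) in Lamp1 and Mcoln1, and to TGACTCA (the AP-1 site), here read on the other strand, in Cd68.
Cd68, chr11:69666171-69666420, minus strand: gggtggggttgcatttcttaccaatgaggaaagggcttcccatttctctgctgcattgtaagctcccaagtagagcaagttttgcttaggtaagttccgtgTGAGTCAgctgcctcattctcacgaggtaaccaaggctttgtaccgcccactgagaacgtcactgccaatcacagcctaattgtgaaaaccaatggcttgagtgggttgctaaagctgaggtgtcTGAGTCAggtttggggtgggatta
Lamp1, chr8:13158911-13159160, plus strand: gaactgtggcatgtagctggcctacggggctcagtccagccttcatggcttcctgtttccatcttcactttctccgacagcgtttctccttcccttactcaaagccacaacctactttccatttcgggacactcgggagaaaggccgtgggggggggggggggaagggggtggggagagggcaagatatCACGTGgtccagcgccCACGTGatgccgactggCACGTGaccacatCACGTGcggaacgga
Mcoln1, chr8:3500269-3500518, plus strand: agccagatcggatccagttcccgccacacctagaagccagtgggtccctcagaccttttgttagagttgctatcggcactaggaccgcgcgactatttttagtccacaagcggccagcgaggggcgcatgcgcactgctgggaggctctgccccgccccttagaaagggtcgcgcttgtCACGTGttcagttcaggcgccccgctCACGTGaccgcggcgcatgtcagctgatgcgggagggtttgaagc

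Both strands were searched in all 32851 windows of the same length. CACGTG was found 4 times for Lamp1, starting at -61, -45, -28 and -15 from the start site, and 2 times for Mcoln1, at -71 and -45. Of all windows, 6.02% held CACGTG, 0.429% held it at least 2 times and 7 windows held it at least 4 times. TGACTCA was found 2 times for Cd68, at -149 and -24, against 4.46% of all windows with a match and 0.167% with at least 2. Laptm4a also had 1 TGACTCA. The Cd68 window had no CACGTG, and the windows of Lamp2, Cd63, Scarb2, Npc2, Ctns and Laptm4a had none either. TGACNNNGC (the core of the antioxidant response element) was found 1 time for Scarb2 and is in 10.2% of windows. GCGTG (the core of the xenobiotic response element) was found 2 times for Lamp2 and 1 time for Npc2 and is in 28.2% of windows. TATAAA was found 1 time for Laptm4a and is in 12.4% of windows. A match is a string of letters, and binding was not measured.

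Cells with at least 50000 counts and 1000 genes were kept, which gave 29 control cells (60.4%) and 37 RO-3306 cells (77.1%). Kept totals ran from 59979 to 6457215 counts in control and from 295005 to 5321880 in RO-3306. RO-3306 cells were sequenced more deeply (median 2234309 counts against 1753427), and at an equal depth of 639000 reads they also had more genes (median 5958 against 4576, over 34 and 25 cells). 1 RO-3306 cell, B3, stood apart with 56.0% of its counts from mitochondrial genes. The next RO-3306 cell had 18.1%, and the highest control cell had 6.03%. Leaving out cells above 20% left the log2 ratio of Cd68 at 8.22 and that of Lamp1 at 1.29. Among all genes, 9374 reached a mean of 5 CPM, and their log2 ratios (RO-3306 over control) had a median of -0.22, so the typical gene was lower in RO-3306 in CPM.

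For each group the counts of all kept cells were added up and scaled to CPM, and log2 ratios were taken after adding 1 CPM to both groups, which understates the ratio of low genes. Of the 10 genes, 9 had a mean of at least 5 CPM, and Npc1, at a mean of 2.42 CPM, did not. 6 of the 10 were at least 2-fold higher in RO-3306 (Cd68, Ctns, Mcoln1, Lamp2, Lamp1 and Npc1), and 5 of these were among the 9. Of all genes tested, 12.2% were at least 2-fold higher. None of the 10 was at least 2-fold lower, against 24.2% of all genes tested. None of the 10 was lower in every set, against 10.3% of all genes tested. 8 of the 10 were higher in every set, as were 13.1% of all genes tested, and 7.23% of all genes tested were both 2-fold higher and higher in every set, as were 5 of the 9. The median log2 ratio of the 10 was 1.28. Because the genes were picked from this contrast, these counts are not evidence about the group.

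**Figure D1:**
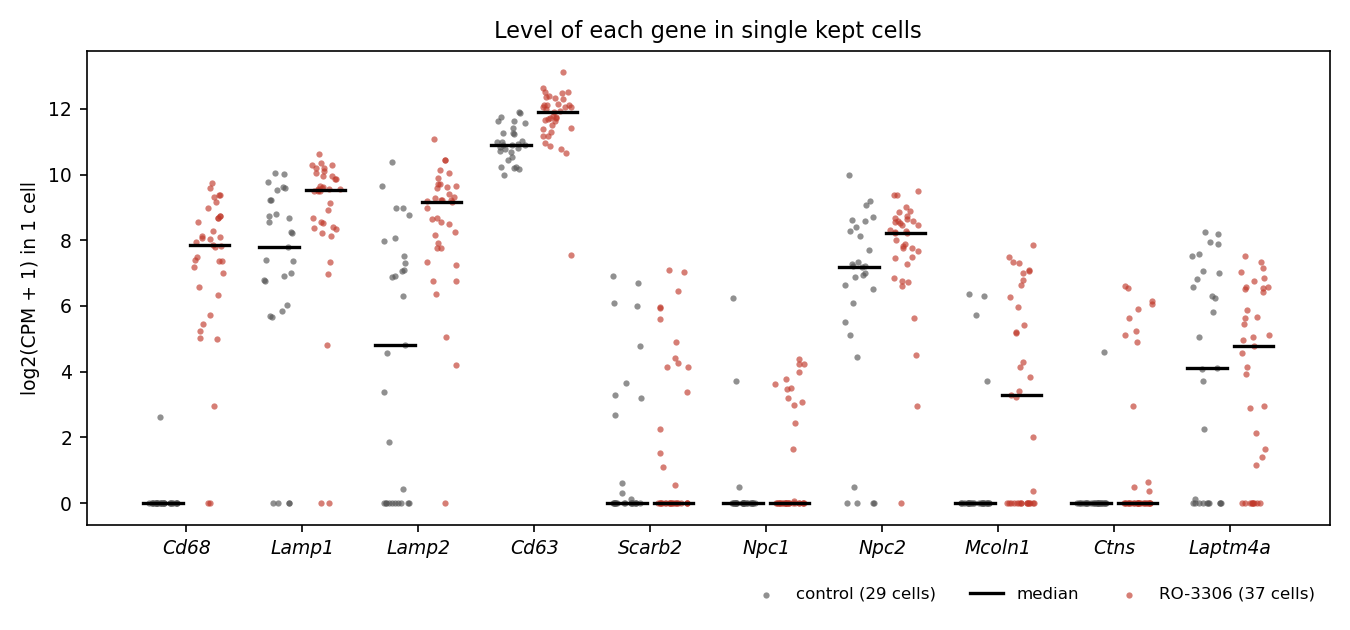
Level of each of the 10 genes in every kept cell (vertical axis, log2 of CPM plus 1), with 29 control cells in grey, 37 RO-3306 cells in red and a bar at each median. Cd68 is at 0 in 28 control cells and above the highest control cell in 35 RO-3306 cells, whereas the control and RO-3306 cells overlap for the other 9 genes.

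Cd68 (chromosome 11, 69555039 to 69556996 on GRCm39, minus strand) was close to a present-or-absent difference. In control, 28 of 29 cells had no Cd68 count and cell B12 had 5 counts, or 5.20 CPM. In RO-3306, 2 of 37 cells had none, the median was 229 CPM and the highest cell, B5, had 860 CPM. All 35 RO-3306 cells with a count lay above B12, so the groups overlapped only through the 2 cells at 0. The pooled level was 0.0757 CPM in control (0.0246 to 0.177) and 320 CPM in RO-3306 (316 to 323), a ratio of 4224 with a counting interval of 1810 to 13008. The control sum rests on 5 counts in 1 cell, and without B12 it was 0, which gives a level at least 6937-fold higher in RO-3306 against a floor of 3 counts over the control group.

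The sets gave closely similar Cd68 levels. Pooled RO-3306 levels were 310, 393, 255 and 343 CPM in sets A, B, C and D, and medians over cells ran from 199 to 251 CPM. Control sums were 0 in sets A, C and D, where RO-3306 was at least 2558-fold, 680-fold and 850-fold higher against a floor of 3 counts per set. In set B the control level was 0.194 CPM. The width within RO-3306 was larger than that between sets: the quartiles over cells were 93.5 and 407 CPM.

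The 3 cells that went against the pattern did not share one profile. RO-3306 cell A11 had no Cd68, Lamp1 or Mcoln1, a mitochondrial share of 18.1%, and 1597 CPM of Cd63. RO-3306 cell C11 had no Cd68, Lamp1, Lamp2 or Npc2, yet it had the highest Mcoln1 level of all kept cells (232 CPM) and 3247 CPM of Cd63. It had 2159 genes with a count, the fewest of the kept RO-3306 cells. C11 also had 1362 CPM of Gsta1, a glutathione transferase, and 1623 CPM of Aldh3a1, an aldehyde dehydrogenase, while A11 had neither. Control cell B12, the one with Cd68, had no count of Gsta1 or Aldh3a1. At the edge of the filter, left-out RO-3306 cell B8 (19068 counts, 4047 genes) had 2 Cd68 counts, 682 CPM of Lamp1 and 2465 CPM of Cd63, and kept cell B3 had 2 Cd68 counts, or 6.78 CPM. Left-out RO-3306 cell D5 (943 genes, 87.3% mitochondrial) had no count of any of the 10 genes.

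Cd68 is known best from macrophages, so other macrophage genes were read beside it. Of 21 listed macrophage markers, 9 had no count in any kept cell: Aif1, Marco, Msr1, Tyrobp, C1qa, C1qb, C1qc, Siglecf and Chil3. The summed level of all 21 was 58.5 CPM in control cells and 86.9 CPM in RO-3306. Over single cells the sum ran from 0 to 314 CPM in control (median 6.13) and from 0 to 436 CPM in RO-3306 (median 59.8). 3 markers reached 5 CPM: Cd14, a receptor for bacterial lipopolysaccharide, was at 26.4 and 45.3 CPM in control and RO-3306, Lyz2, a lysozyme, at 29.5 and 15.8 CPM, and Itgb2, the beta chain of leukocyte integrins, at 0 and 22 CPM. Itgb2 had counts in 10 RO-3306 cells and was at least 484-fold higher there against the floor of 3 counts. The Lyz2 counts came from 3 control cells and 11 RO-3306 cells. By set its log2 ratio was -3.07, 2.24, -1.08 and 1.93 in A, B, C and D, so its direction was not stable. The part of macrophage-type expression in the Cd68 difference was not tested.

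Genes beside Cd68 on chromosome 11 had levels that were nearer to each other in the 2 groups, or lower in RO-3306. Within 50 kb of it lie 16 other gene spans, of which 8 had a count in any kept cell and 5 had a mean of at least 5 CPM. None of the 5 was at least 2-fold higher, against 12.2% of all genes tested, and 1 was at least 2-fold lower, against 24.2%. Eif4a1, a translation initiation helicase in the next span, was at 150 CPM in control cells and 118 CPM in RO-3306. Mpdu1, on the other side, was at 28.9 and 24.4 CPM, Senp3 at 45.5 and 29.8 CPM, Sat2 at 6.63 and 6.31 CPM, and Fxr2 at 27.9 and 3.69 CPM.

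Lamp1 (chromosome 8, 13209161 to 13225338) was higher in RO-3306 by a similar factor in each set. Control cells ran from 0 to 1061 CPM with a median of 221, and RO-3306 cells from 0 to 1592 CPM with a median of 735. The groups overlapped widely, although 32 of 37 RO-3306 cells lay above the control median and 7 above the highest control cell. Pooled over cells, the level was 325 CPM in control (320 to 329) and 791 CPM in RO-3306 (786 to 797), a ratio of 2.44 and a log2 ratio of 1.28. By set the log2 ratio was 1.22, 1.11, 1.23 and 1.63 in A, B, C and D.

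Lamp2 (X chromosome, 37488524 to 37545337), the second major membrane glycoprotein and, in one spliced form, a receptor for chaperone-mediated autophagy, differed more in how many cells had it. Control cells ran from 0 to 1341 CPM with a median of 27.3, and 19 of 29 had a count. RO-3306 cells ran from 0 to 2187 CPM with a median of 572, and 36 of 37 had a count. The pooled level was 192 CPM in control (188 to 195) and 616 CPM in RO-3306 (610 to 621), a log2 ratio of 1.68. The ratio varied with the control level of the set: control was 34.8 CPM in set C, where the log2 ratio was 4.19, and 329 CPM in set D, where it was 1.10. RO-3306 lay between 423 and 704 CPM in all 4 sets. A noncoding gene, LOC115489130, overlaps 23.9% of the span and had no count in either group. The spliced forms of Lamp2 cannot be told apart in counts per gene.

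Cd63 (chromosome 10, 128731577 to 128748691), a tetraspanin of late endosomes, lysosomes and secreted vesicles, was the most abundant of the 10 and was found in all 66 kept cells. Control cells ran from 1017 to 3789 CPM with a median of 1921. RO-3306 cells ran from 185 CPM in B3 to 8849 CPM with a median of 3842, and 19 of 37 lay above the highest control cell. The summed counts gave 2229 CPM in control (2217 to 2240) and 3875 CPM in RO-3306 (3862 to 3887), a log2 ratio of 0.80. By set the log2 ratio lay between 0.58 and 1.14. The pooled CPM ratio was thus under 2-fold, while sets C and D were over it, as were the pooled counts with TMM (log2 ratio 1.01) or DESeq2 (1.03) factors. Its difference in CPM was the largest of the 10. It made up 73.1% of the summed level of the 10 genes in control and 63.8% in RO-3306.

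Laptm4a (chromosome 12, 8971307 to 8988742), a small membrane protein of late endosomes and lysosomes, was the one gene of the 10 with a lower pooled level. Control cells ran from 0 to 301 CPM with a median of 16.4, and RO-3306 cells from 0 to 182 CPM with a median of 26.7. The pooled level was 73.6 CPM in control (71.6 to 75.7) and 48.9 CPM in RO-3306 (47.5 to 50.3), a log2 ratio of -0.58. The medians over cells thus go the other way from the pooled levels. The sets also disagreed, with log2 ratios of 0.92, -0.21, -1.37 and -2.26 in A, B, C and D. Its relative Laptm4b, from the same family, was at 131 CPM in control cells and 347 CPM in RO-3306, and Laptm5 had no count.

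Npc1 and Npc2 work in sequence, Npc2 taking cholesterol from the lumen and Npc1 passing it through the membrane. Npc2 (chromosome 12, 84801333 to 84819886) ran from 0 to 1008 CPM over control cells with a median of 143, and from 0 to 717 CPM over RO-3306 cells with a median of 299. In pooled counts it was at 201 CPM in control (198 to 205) and 332 CPM in RO-3306 (328 to 336), a log2 ratio of 0.72. RO-3306 lay between 313 and 357 CPM in all sets, while control lay between 76.8 CPM in set D and 293 CPM in set C. The log2 ratio was above 0 in each set but only 0.14 in set C.

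Npc1 was scarce. A count was found in 3 of the 29 control cells and in 14 of 37 RO-3306 cells, and the highest cell of all was a control cell at 74.4 CPM, against 19.9 CPM in RO-3306. The pooled level was 0.992 CPM in control (0.773 to 1.27) and 3.84 CPM in RO-3306 (3.46 to 4.27), a log2 ratio of 1.28. Control cell A1 held 69.5% of the control counts, and without it the pooled ratio went from 3.87 to 12 (log2 ratio 1.87). Giving each cell the same weight brought the log2 ratio to 0.29, so its place among the genes 2-fold higher depended on the weighting. Its span overlaps that of Rmc1 on the other strand over 19.1% of its length. No strand option is recorded, so reads of the pair may not be separable. Rmc1 was at 14.4 CPM in control cells and 39.2 CPM in RO-3306.

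Scarb2 (chromosome 5, 92589170 to 92653516), a membrane glycoprotein that works as a sorting receptor to lysosomes, showed no stable difference. A count was found in 12 of the 29 control cells and in 16 of 37 RO-3306 cells, the median was 0 CPM in both groups, and the highest cells were at 120 CPM and 134 CPM. Summed over cells it stood at 14.2 CPM in control (13.3 to 15.1) and 17.8 CPM in RO-3306 (17 to 18.7), a log2 ratio of 0.31. Control cell D9 held 42% of the control counts, and without it the log2 ratio was 0.96, whereas without RO-3306 cell D7 it was 0.01. The sets split evenly, from -0.77 in D to 3.92 in C, where control had no count.

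Mcoln1 (chromosome 8, 3550458 to 3565232), a channel that releases calcium from lysosomes, was found in 4 of the 29 control cells and in 22 of 37 RO-3306 cells. Control cells reached 81.7 CPM with a median of 0, and RO-3306 cells reached 232 CPM with a median of 8.82. The groups overlapped at 0 and also among cells with counts, and 9 RO-3306 cells lay above the highest control cell. The pooled level was 12.6 CPM in control (11.7 to 13.4) and 53.7 CPM in RO-3306 (52.3 to 55.2), a log2 ratio of 2.01. Control cell A1 held 36.9% of the control counts, and without it the log2 ratio was 2.54 and the pooled ratio went from 4.28 to 6.40. Set D, where 1 of 5 control cells had counts, gave 0.74, the lowest of the sets. Its relative Mcoln3, a channel of the same family, had no control count and was at 18.6 CPM in RO-3306, at least 410-fold higher against the floor of 3 counts, with counts in 16 of 37 cells. Mcoln2 had a count in 2 RO-3306 cells and in no control cell.

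Ctns (chromosome 11, 73073959 to 73089869), the exporter of cystine from lysosomes, had counts in 1 of the 29 control cells and in 13 of 37 RO-3306 cells. The highest RO-3306 cell, A5, had 97.2 CPM, and 9 RO-3306 cells lay above the 23.5 CPM of control cell B4. Over all kept cells the level was 2.29 CPM in control (1.95 to 2.70) and 19.1 CPM in RO-3306 (18.2 to 19.98), a log2 ratio of 2.61. B4 held all 151.5 control counts, and without it RO-3306 was at least 379-fold higher against the floor of 3 counts. A5 held 27.5% of the RO-3306 counts, and without it the log2 ratio was 2.25. In sets A, C and D control had no count and RO-3306 was at least 350-fold, 22.9-fold and 46.2-fold higher. The control level thus rests on 1 cell.

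**Figure D2:**
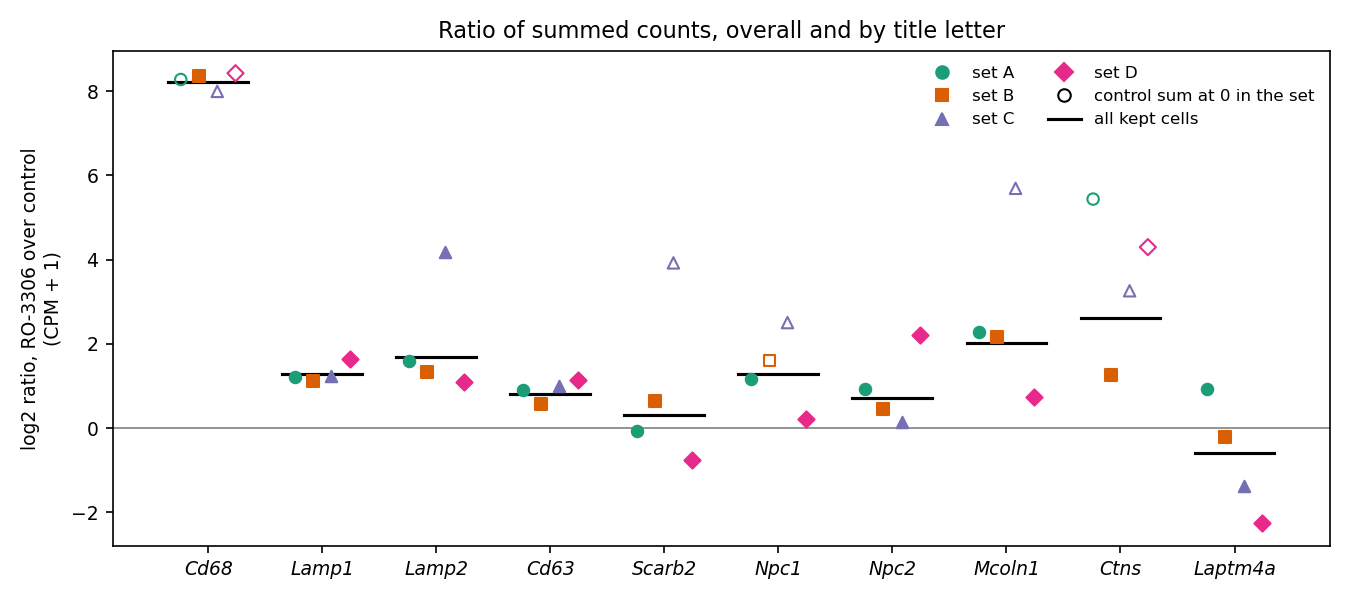
Log2 ratio of RO-3306 over control (1 CPM added to both) for each of the 10 genes, with a black bar for all kept cells and a symbol for each lettered set, open where the control sum of that set was 0. Lamp1 and Cd63 lie close together over sets (1.11 to 1.63 and 0.58 to 1.14), and Scarb2 and Laptm4a fall on both sides of 0.

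Depth differed between the groups, so cells were thinned at random to 639000 reads, which left 25 control and 34 RO-3306 cells. At this depth a Cd68 count was found in 4% of control cells (0.101% to 20.4%) and 97.1% of RO-3306 cells (84.7% to 99.9%). The unthinned shares, over all kept cells, were 3.45% and 94.6%. RO-3306 cell A11, which had no Cd68 count, had 515218 counts in all and was left out by the thinning. The thinned and unthinned shares are thus not over the same cells, and the step between them does not measure depth alone. Mcoln1 went from 16% (4.54% to 36.1%) to 64.7% (46.5% to 80.3%), and Lamp2 from 64% (42.5% to 82.0%) to 97.1% (84.7% to 99.9%). For these 3 genes, all of at least 5 CPM, the intervals did not overlap, as was so in the same direction for 7.76% of all genes tested. The cells of a group come from 1 sample, so this describes these cells and is no test of the treatment. For Lamp1, Npc2, Npc1, Ctns, Scarb2 and Laptm4a the RO-3306 share was higher but the intervals overlapped, as with 8% (0.984% to 26%) and 32.4% (17.4% to 50.5%) for Npc1. Cd63 was at 100% in both. At this depth the median cell had counts for 5 of the 10 genes in control and 8 in RO-3306. The median number of all genes with a count was also higher in RO-3306, at 5958 against 4576 in control.

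**Figure D3:**
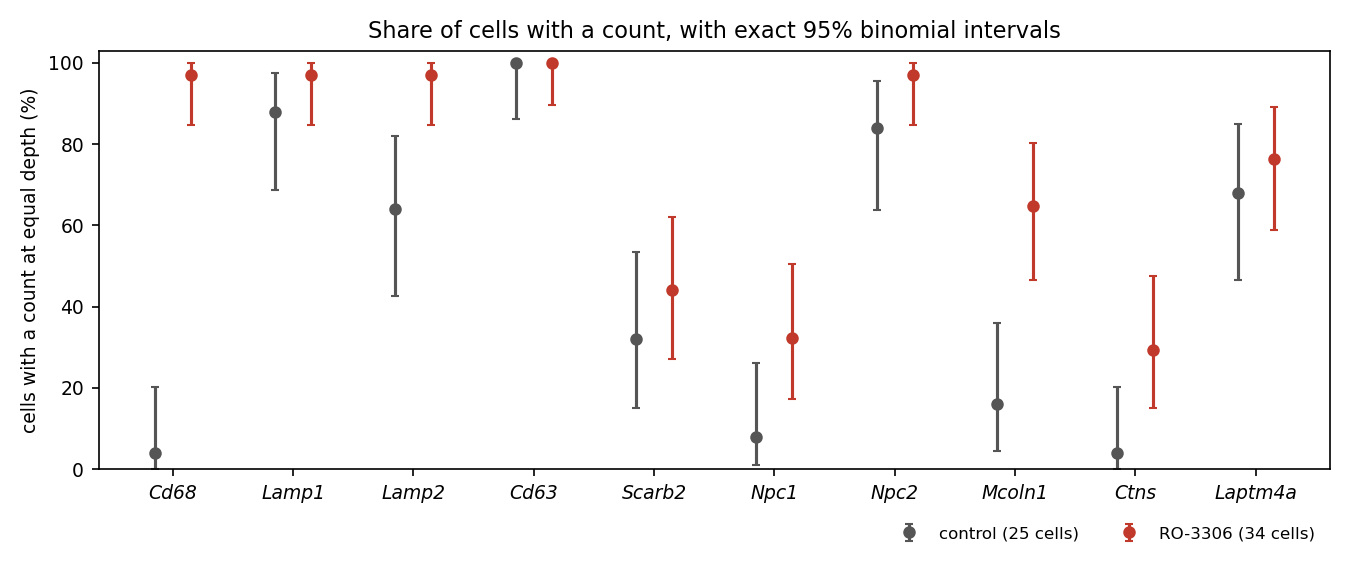
Share of cells with at least 1 count of each gene after thinning to 639000 reads (vertical axis, percent), for 25 control cells (grey) and 34 RO-3306 cells (red), with exact 95% binomial intervals. The shares were 4% and 97.1% for Cd68, 64% and 97.1% for Lamp2 and 16% and 64.7% for Mcoln1, with intervals that do not meet.

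The summed level of the 10 genes per cell ran from 1186 to 5532 CPM in control with a median of 2801, and from 261 CPM in B3 to 12016 CPM in RO-3306 with a median of 5976. To set genes beside each other, pooled levels were divided by mRNA length. In control the order was Cd63 (2009 CPM per kb), Lamp1 (146), Npc2 (61.0), Lamp2 (53.2), Laptm4a (41.5), Mcoln1 (6.08), Scarb2 (3.02), Ctns (0.843), Npc1 (0.190) and Cd68 (0.0616). In RO-3306 it was Cd63 (3494 CPM per kb), Lamp1 (355), Cd68 (260), Lamp2 (171), Npc2 (101), Laptm4a (27.6), Mcoln1 (26), Ctns (7.0), Scarb2 (3.79) and Npc1 (0.735). Cd68 thus ranked 10 of 10 in control and 3 of 10 in RO-3306. In control only Cd63 and Lamp1 were neighbours whose quartiles over cells did not overlap, and in RO-3306 this held for Cd63 and Lamp1 and for Npc2 and Laptm4a.

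Within the RO-3306 group, the 10 genes varied together weakly. Over 34 thinned cells, Spearman's rho of the 45 gene pairs had a median of 0.27 and ran from -0.16 to 0.59. Cells share their library's makeup and gene content, so these values are descriptions. The highest pair was Cd68 with Ctns (0.59). Cd68 with Lamp2 gave 0.50, with Npc2 0.46, with Cd63 0.46, with Mcoln1 0.42 and with Lamp1 0.39. For comparison, rho with Cd68 had a median of 0.06 over the 3354 genes of at least 50 CPM in RO-3306. Among those, the genes just listed ranked from 23 (Lamp2) to 136 (Lamp1). Over 37 RO-3306 cells, rho of Cd68 with the number of genes was 0.43, with total counts 0.31 and with the mitochondrial share -0.25. Pairs were computed where both genes had a count in at least 10 thinned cells, which in control left 10 pairs of 5 genes over 25 cells, with a median of 0.05. The same 10 pairs had a median of 0.33 in RO-3306.

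Over 3354 genes of at least 50 CPM in RO-3306, the genes most like Cd68 across the 34 cells were Ftsj3 (rho 0.65), Gnptg (0.61), Slc43a3 (0.61), Vkorc1 (0.60) and Fuca2 (0.59). The 99th percentile over all of them was 0.48. Gnptg is the gamma subunit of the enzyme that tags lysosomal proteins for delivery, and Fuca2 is a fucosidase. Ftsj3, a ribosome biogenesis protein, was at 67.8 CPM in control cells and 58.1 CPM in RO-3306, while the others named were higher in RO-3306. Slc43a3, a nucleobase transporter, was at 112 and 281 CPM and Gnptg at 44.2 and 82.8 CPM. Vkorc1 was at 148 and 234 CPM and Fuca2 at 39.7 and 86.9 CPM.

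Lysosomal genes outside the 10 were read by list. Of 33 lumen enzymes of at least 5 CPM, 20 were at least 2-fold higher in RO-3306, 1 was at least 2-fold lower and 18 were higher in every set, with a median log2 ratio of 1.19. Without set A, 13 were at least 2-fold higher. Ctso, Man2b1 and Arsa were among the largest. Man2b1, a mannosidase, was at 4.53 and 39.9 CPM in control and RO-3306, and Arsa, a sulfatase, at 9.39 and 52.7 CPM. Ctso, a cathepsin, rested on 1 control cell and 9 RO-3306 cells. Of 15 subunits of the proton pump that acidifies the lysosome, 7 were at least 2-fold higher and none 2-fold lower, with a median of 0.96. Atp6v1g1 was at 584 CPM in control cells and 1729 CPM in RO-3306, and Atp6v1d at 99 and 366 CPM. Of all genes tested, 12.2% were at least 2-fold higher, 24.2% at least 2-fold lower and 13.1% higher in every set, with a median of -0.22.

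Membrane proteins other than the 10 went both ways, as did all genes tested. Of 21 such genes of at least 5 CPM, 4 were at least 2-fold higher and 4 at least 2-fold lower, with a median log2 ratio of 0.49. The shares among all genes tested were 12.2% and 24.2%, so neither count in this list is far from that of all genes. The median of all genes tested was lower, at -0.22. Mcoln3 and Laptm4b were on the higher side. Slc15a4, a transporter of histidine and peptides, was at 40.7 CPM in control cells and 4.29 CPM in RO-3306, Slc38a9, an amino acid sensor, at 8.22 and 1.81 CPM, and Mfsd8 at 20.1 and 5.82 CPM. Each of these 3 was found in 2 to 8 cells of a group, and each changed direction between sets. The remaining lower gene, Stard3, was at 46.8 CPM in control cells and 19.3 CPM in RO-3306. It had counts in 14 control cells and 16 RO-3306 cells and was lower in every set. Cd68's relatives Lamp3 and Lamp5 were nearly absent: Lamp5 had no count, and Lamp3 was at 0.227 CPM in control cells and 0.108 CPM in RO-3306. Of 16 tetraspanins other than Cd63, 2 were at least 2-fold higher and 1 at least 2-fold lower, with a median of 0.35, and the count of higher genes is near the 12.2% of all genes tested. Cd53, a tetraspanin of leukocytes, had no control count and was at 58.5 CPM in RO-3306 in 17 of 37 cells, at least 1288-fold higher against the floor of 3 counts. Cd82 was at 96.2 and 41.5 CPM, Upk1b at 3.0 and 7.93 CPM, and Cd81 at 175 and 330 CPM.

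Transcripts of the factors that bind lysosomal E-boxes were low in both groups. Tfeb was at 14.2 CPM in control cells and 13 CPM in RO-3306, Tfe3 at 1.14 and 3.43 CPM, and Mitf at 1.53 and 2.78 CPM. Of 8 factors and regulators of at least 5 CPM, 2 were at least 2-fold higher and 2 at least 2-fold lower, with a median log2 ratio of 0.14. Among all genes tested the shares were 12.2% and 24.2%, so the count of lower factors and regulators is near that of all genes. The higher pair was Rragc, a GTPase that recruits mTORC1 to lysosomes (87.3 and 212 CPM), and Sqstm1, an autophagy receptor (410 and 943 CPM). The lower pair was Zkscan3 (52.7 and 19 CPM) and Rptor (15.3 and 5.40 CPM). Zkscan3 had counts in 8 control cells and 11 RO-3306 cells, and it was higher in sets A and C and lower in B and D. Rptor had counts in 7 and 6 cells and was lower in every set. Of 22 genes of the machinery that sorts proteins to lysosomes, 1 was at least 2-fold higher, Bloc1s1 (162 and 335 CPM), and 2 at least 2-fold lower, Gga3 (19.9 and 1.01 CPM) and Ap3d1 (65.9 and 20.9 CPM). Vps39, at 6.07 and 13 CPM, was just under 2-fold higher, and the list median was -0.14.

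Of the 6 mesenchymal markers, 3 were at least 2-fold lower in RO-3306, against 24.2% of all genes tested, with a median log2 ratio of -1.47. Col3a1 was at 603 and 83.6 CPM, Col1a1 at 714 and 127 CPM, Fn1 at 729 and 182 CPM, and Vim at 2427 and 1264 CPM. Their part in the differences of the 10 genes was not tested.

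**Figure D4:**
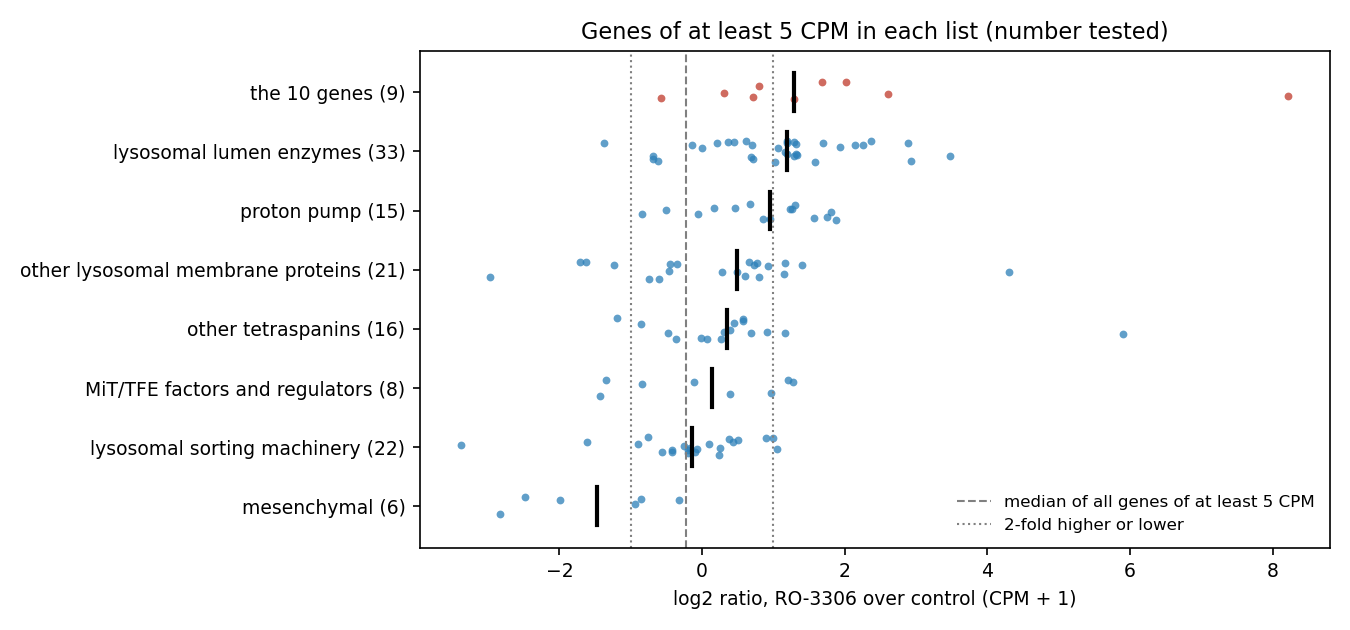
Log2 ratio of RO-3306 over control (1 CPM added to both) for each gene of at least 5 CPM in 8 lists, with the 9 measured genes of the 10 in red, other lists in blue and a black bar at each median. Lumen enzymes (1.19) and the proton pump (0.96) have medians near that of the 9 genes (1.28), while sorting machinery (-0.14) lies near the median of all genes (-0.22, dashed line).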

How the data were processed

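The authors counted reads with featureCounts 2.0.3 per the file headers, which name GRCm39, whole gene spans, equal fractions for reads placed at several sites and no strand option. The submitters' processing notes also name FastQC and STAR. The deposited values are expected counts, since 10.7% to 54.2% of the libraries with a count of a gene held a fraction (over 1e-06 from a whole number). Counts include PCR copies.

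The 10 genes and all gene lists were chosen with earlier results of these data known. Counts were summed over kept cells and scaled to a total of 1000000 (CPM), with a pseudocount of 1 CPM. Intervals are exact Poisson for sums and Clopper-Pearson for shares, at the 95% level, on rounded counts. The thinning depth is percentile 10 of kept totals, rounded down to a multiple of 1000. The text names the 10 genes, up to 4 genes per list with the largest absolute ratio and a mean of at least 5 CPM, Tfeb, Tfe3, Mitf, markers at 0, genes within 50 kb of Cd68 and the 5 genes most like it. Other named genes (Laptm4b, Laptm5, Lamp3, Lamp5, Mcoln2, Stard3, Rmc1, Gsta1, Aldh3a1 and those in the closing observations) were chosen after their values were seen. mRNA lengths are of the longest GENCODE M21 transcript tagged as principal, or otherwise of the longest protein-coding or other transcript of the gene. Levels per kb depend on this choice. No 2 kept libraries were identical. Doublets were not called, as each library was meant to hold 1 sorted cell, which was not checked. Steps used Python 3.11.15, numpy 2.4.6, pandas 2.3.3 and scipy 1.17.1, and were tested on simulated data. Scaling factors of edgeR 4.0.16 and DESeq2 1.42.0 served as alternatives only. A planned check of protein tails was not run. The values of 1 gene that the naming rule picks are not reported here. Promoter sequences are from RefSeq.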

Additional observations from a re-analysis of the deposited data

Results flagged for a closer look

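Libraries below the filter, which the report's values leave out, held counts of 3 of the genes whose counting interval lay above that of the left-out control libraries. In the 11 left-out RO-3306 libraries (1162603 counts in all), Lamp1 was at 20.6 CPM from 24 counts in 5 libraries. The 19 left-out control libraries had no Lamp1 count, and the counting interval of a count of 0 there reaches 10.8 CPM. Library B8 held 54.2% of the RO-3306 counts of Lamp1, and without it Lamp1 was at 9.62 CPM, below 10.8 CPM. Lamp2, at 9.46 CPM from 11 counts in 4 libraries and with none in control, was also below 10.8 CPM. Its counting interval was 4.72 to 16.9 CPM. Cd63 was at 1396 CPM in 9 of the 11, against 58.6 CPM in control, and library D4 held 61.6% of it (637 CPM without D4). Scarb2 was at 74.4 CPM from 86.5 counts, all in library D10.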

How the results depend on the processing

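Each treatment is 1 sample, since the labels name no separate cultures, and genes near 1 CPM, such as Npc1, rest on a few cells. The median log2 ratio of the 10 genes (1.28) was 1.46 with TMM factors, 1.48 with DESeq2 size factors, 0.93 with cells weighted equally, 1.10 after thinning to equal depth, 1.48 with a pseudocount of 0.1 CPM, 1.03 with a pseudocount of 5 CPM and 1.78 with a correction for mRNA length. TMM and DESeq2 factors moved log2 ratios up by 0.21 and 0.24, and by less for low genes because of the pseudocount. They changed the shares of genes 2-fold higher and lower from 12.2% and 24.2% to 15.8% and 19.3% (TMM) and to 16.3% and 18.8% (DESeq2). The count of 6 genes at least 2-fold higher ran from 4 to 7, with 4 when cells were weighted equally (Lamp1 at 0.996 and Npc1 at 0.29). Without set A, 1 gene was at least 2-fold lower, Laptm4a at -1.09. Each gene was recomputed under 18 alternatives. Those that leave out control cell B12 or the cell with the most counts of a gene in either group were chosen after seeing the data. The log2 ratio of Cd68 ran from 6.0 to 10.83, Laptm4a from -1.09 to -0.15, and the other 8 genes stayed above 0 (Scarb2 from 0.01 to 0.96). Median log2 ratios changed sign for sorting machinery (-0.21 to 0.20) and MiT/TFE genes (-0.09 to 0.68). No paired analysis was possible because replicate numbers are names only and each group is 1 sample with no test.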

Other observations

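A search over all 40202 genes for the detection pattern of Cd68, a count in at most 1 control cell and in at least 30 RO-3306 cells, found 2 genes, Cd68 and Gm2022. Gm2022 was at 2.53 CPM in control, from 1 cell, and 28.9 CPM in RO-3306, with counts in 31 of 37 cells. Its count was a fraction in 30 of the 32 cells that had one, so its reads are shared with other sites and its level is uncertain. Ctsf, a cathepsin, had no control count and was at 9.20 CPM in RO-3306 in 9 cells.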
